A study of Mus musculus with 29 samples.

Results

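The nicotinic acetylcholine receptor of skeletal muscle is encoded by 5 genes, Chrna1 (alpha subunit), Chrnb1 (beta), Chrnd (delta), Chrng (gamma) and Chrne (epsilon). They were found by their symbols, and all 5 were present among the 22537 gene symbols counted. The RNA came from the whole tibialis anterior (TA), a fast hindlimb muscle, of male C57BL/6 mice of 6m, 24m and 28m (months of age). The labels describe the oldest group as 28 months or older, no treatment is given for the mice, and they had been tested for physical function before the muscle was taken. The first sequencing run held 7 mice at 24m and 7 at 6m, and the second run held 8 mice at 28m and fresh libraries from the 7 mice of 6m, so that 29 libraries came from 22 mice. Mice are numbered within their age group as replicates, and a 6m mouse has the same number in both runs.

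The receptor is the ion channel in the muscle fibre membrane that opens when the motor nerve releases acetylcholine. Each receptor is a pentamer of a pair of alpha subunits with a beta, a delta and either a gamma or an epsilon subunit. The gamma form is made in fetal and denervated muscle, and the epsilon form replaces it at the adult neuromuscular junction. In innervated fibres the genes are transcribed mainly by the few nuclei under the nerve ending, and loss of nerve activity lets nuclei along the fibre transcribe Chrna1, Chrnb1, Chrnd and Chrng again, through myogenic factors that bind E-box sequences. Chrne depends more on signals from the nerve ending, in part through an Ets-type site called the N-box.

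On GRCm38, the build called mm10, Chrnd (chr1:87190607-87200070) and Chrng (chr1:87204657-87212694) lie next to each other on the plus strand with 4586 bases between them. Chrna1 (chr2:73563215-73580338), Chrnb1 (chr11:69784036-69795943) and Chrne (chr11:70614883-70619216) are on the minus strand. The only annotated gene that overlaps a member is 4930544D05Rik, on the strand opposite to Chrne, and they share 0 exonic bases. The bases upstream of the start of transcription are printed because E-boxes there are the sites through which muscle activity is known to act on these genes. RefSeq sequences of GRCm38.p6 were found for 4 of the 5 members, and Chrnd was not matched. The 250 bases before the RefSeq start are given 5′ to 3′ on the strand of the gene, with each CANNTG, the E-box, in capitals. The windows are chr2:73580339-73580588 for Chrna1, chr11:69795938-69796187 for Chrnb1, chr1:87205561-87205810 for Chrng and chr11:70619195-70619444 for Chrne. The RefSeq start of Chrng, position 87205811, is downstream of the start of the GENCODE span given above, so that its window lies inside that span.
Chrna1: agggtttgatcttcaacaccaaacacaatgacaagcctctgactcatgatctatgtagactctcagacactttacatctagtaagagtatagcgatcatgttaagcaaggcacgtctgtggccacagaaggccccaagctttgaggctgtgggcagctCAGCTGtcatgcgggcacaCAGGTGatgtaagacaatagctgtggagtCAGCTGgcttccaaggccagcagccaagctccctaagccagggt
Chrnb1: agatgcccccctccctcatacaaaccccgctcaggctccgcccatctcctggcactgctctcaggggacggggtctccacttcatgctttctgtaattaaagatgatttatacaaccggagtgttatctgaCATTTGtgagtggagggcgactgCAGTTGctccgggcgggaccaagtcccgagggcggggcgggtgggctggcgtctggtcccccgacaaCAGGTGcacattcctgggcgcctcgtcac
Chrng: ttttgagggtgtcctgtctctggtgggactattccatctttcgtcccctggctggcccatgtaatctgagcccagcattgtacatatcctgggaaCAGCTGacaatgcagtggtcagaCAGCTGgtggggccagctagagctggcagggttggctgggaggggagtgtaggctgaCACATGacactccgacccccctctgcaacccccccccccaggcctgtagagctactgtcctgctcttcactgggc
Chrne: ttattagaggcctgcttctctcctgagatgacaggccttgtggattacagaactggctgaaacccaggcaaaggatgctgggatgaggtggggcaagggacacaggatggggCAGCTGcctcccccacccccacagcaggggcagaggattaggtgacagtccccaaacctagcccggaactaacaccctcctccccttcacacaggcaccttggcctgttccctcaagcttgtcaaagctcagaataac

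The windows of Chrna1, Chrnb1 and Chrng held 3 E-boxes each and that of Chrne held 1. Among 27025 mouse promoter windows of this length, 66.0% held at least 1 and 12.1% held at least 3. CANNTG reads the same on both strands, so each was counted once. The form CAGCTG, which is one of the CANNTG matches, occurred 2 times in Chrna1 and Chrng, 1 time in Chrne and 0 times in Chrnb1, against 12.8% of windows with at least 1 and 1.16% with at least 2. The core of the N-box, CCGGAA, searched on both strands, was found in the window of Chrne alone of these 4, from -76 to -71 relative to the start, and 12.2% of all windows held it. These matches describe letters in a window and were not tested for binding.

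Libraries held 17633475 to 33499162 reads on genes. In each age comparison between 12994 and 13103 genes passed the filter on low counts, all 5 members among them, and Chrng passed mainly on the counts of the old mice, with 1 of 7 mice at 6m above the limit in each run. Levels are given as CPM, counts scaled to a common library size, and levels of different genes are compared only per kilobase of mRNA. The 8 muscle fibre markers, such as Acta1 and Ckm, summed to between 134184 and 222173 CPM in all libraries, so that the labelled tissue was seen in each. Markers of other cells were present in every group. At 28m, where 24.3% of all genes tested were called higher and 22.9% lower, 5 of 6 tested endothelial markers and 4 of 6 fibroblast markers fell, 1 of 7 Schwann cell and axon markers rose, 1 of 5 satellite cell markers fell, 0 of 7 immune and 0 of 5 adipocyte markers passed, and 3 of the 8 fibre markers rose and 1 fell. The endothelial markers summed to 382 to 432 CPM at 6m of the second run and 191 to 319 at 28m, and the fibroblast markers to 545 to 2794 and 322 to 1170. The adipocyte markers summed to 14.2 to 51.1 CPM (median 33.1) at 6m and 9.77 to 174 (median 70.7) at 28m. At 24m no marker of any list passed. In bulk RNA, fewer cells of a type and less RNA per cell cannot be told apart. The part of these shifts in the values of the receptor genes was not tested.

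At 6m the order of the subunits was the same in every library of both runs. Per kilobase, Chrnb1 was highest with 19.5 ± 2.83 CPM (SD, n = 7, first run), followed by Chrne with 8.75 ± 1.27, Chrna1 with 3.22 ± 0.879, Chrnd with 0.909 ± 0.261 and Chrng with 0.0854 ± 0.119. The ranges of neighbours in this order did not overlap in either run. The epsilon mRNA thus stood far above the gamma mRNA in adult muscle, where Chrng had 0 to 29 counts per library. At 28m the order of the mean levels per kilobase was kept, but Chrne was above Chrna1 in 7 of 8 mice and Chrnd above Chrng in 7 of 8, with overlapping ranges, and Chrna1 stood above Chrnd in 8 of 8. At 24m Chrna1 had the second highest mean, carried by its highest mice, and it was above Chrne in 3 of 7 mice. All neighbours overlapped at 24m.

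**Figure D1:**
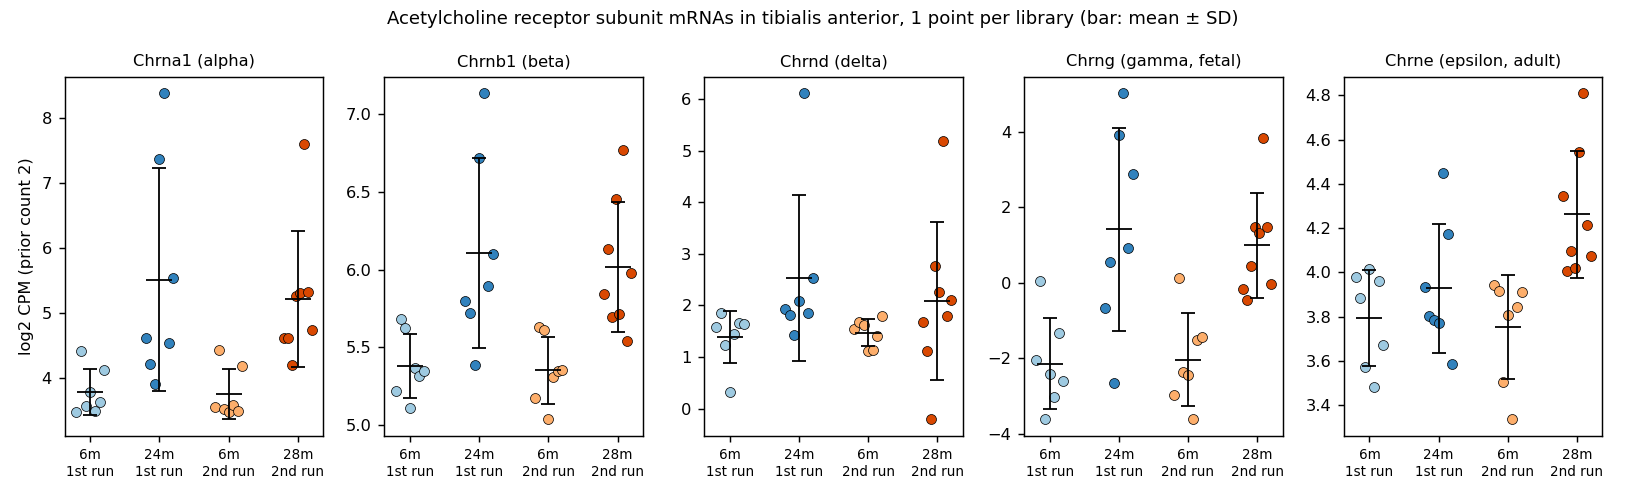
Level of each subunit mRNA in every library, as log2 CPM with a prior count of 2 on the vertical axis (the range differs between panels), by age group and sequencing run on the horizontal axis. Points are libraries and bars are the mean ± SD. The old mice spread widely in Chrna1, Chrnd and Chrng, with 24m replicates 4 and 5 and 28m replicate 6 on top of Chrna1 and Chrng, and Chrne spreads least.

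In the mice of 28m, 4 of the 5 subunit mRNAs were called higher than at 6m. Chrng, among them, entered the test mainly through the 28m mice, so that its call supports no difference. Of these 4, the gamma subunit had the largest log2fc, 3.52, followed by alpha with 1.84, beta with 0.68 and epsilon with 0.50. The delta subunit had 1.47 and did not pass. Of all genes tested, 47.3% passed in either direction at this age and 24.3% were higher, so that a call alone sets a gene little apart from the rest. The limit of a DEG, which also asks for a log2fc of at least 1, was passed upward by Chrna1 and by 2.33% of all genes. Chrng passed it too, which is not taken as support because of how it entered the test. The median log2fc was 1.47 over the 5 members, which is the value of Chrnd, and 0.01 over all genes tested, and without replicate 6, the highest mouse, the median of the members was 0.54.

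Chrna1, which carries most of the acetylcholine binding site, had 11.1 CPM in the lowest, 11.8 in the median and 21.6 in the highest 6m mouse of the second run, and 18.4, 32.6 and 194 CPM at 28m. In 7 of 8 mice at 28m the level was above every 6m mouse. The log2fc was 1.84 (SE, the standard error, 0.46, adjusted p = 0.00489 by the quasi-likelihood test of edgeR). The highest mouse, replicate 6, had 16.5 times the 6m median, and the other 7 mice had between 1.57 and 3.42 times. In replicate 6 the Schwann cell and axon markers summed to 45.1 CPM, the lowest of its group, against 58.0 to 79.3 at 6m, and the adipocyte markers to 9.77 CPM, the lowest of all libraries, and their part in the result was not tested. Without replicate 6 the log2fc was 1.10 and the call held (edgeR adjusted p = 0.00129). DESeq2, which by default replaces an outlying count, gave 1.05, and 1.85 with that count kept.

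Chrnb1, the beta subunit, through which the anchoring protein rapsyn is tied to the receptor, had between 32.7 and 49.4 CPM at 6m (median 40.7) and between 46.4 and 109 at 28m (median 60.2). The groups overlapped by 1 mouse at 28m, replicate 7, which lay within the 6m range. The log2fc was 0.68 (SE 0.17, edgeR adjusted p = 0.00522). When the dependence of each library on GC content and the length of all annotated exons had been removed, it was 0.50 and no longer passed (edgeR adjusted p = 0.0526).

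Chrnd, the delta subunit, which forms an acetylcholine site with alpha, had between 2.10 and 3.39 CPM at 6m (median 2.85) and between 0.783 and 36.4 at 28m (median 3.79). Among the mice of 28m, 4 stood above the whole 6m range, replicate 3 lay below it, and replicate 2 was level with the lowest 6m mouse at 2.10 CPM, so that the groups overlapped. The log2fc was 1.47 (SE 0.61, edgeR adjusted p = 0.0566). Without replicate 6 it fell to 0.37 (edgeR adjusted p = 0.343). Without replicate 1, 2, 3 or 8 of the 28m mice it was between 1.56 and 1.64 and passed, with edgeR adjusted p-values between 0.0271 and 0.0494. It also passed by DESeq2 (log2fc 1.47, adjusted p = 0.0460) and with counts thinned to the smallest library (1.52, edgeR adjusted p = 0.0472), and limma-voom gave 0.61 (adjusted p = 0.388). The lowest mouse, replicate 3, also had the lowest TMM scaling factor of its group, 0.885.

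Chrng, the fetal gamma subunit, was covered by 0 to 24 counts in a 6m library and by 14 to 331 in a 28m library. The level was 0 CPM in the lowest, 0.113 in the median and 1.01 in the highest 6m mouse, and 0.652, 1.85 and 14.1 at 28m. At 6m, replicate 2 stood above the other mice, which were at 0.286 CPM or less, and 5 of 8 mice at 28m exceeded it. The log2fc was 3.52 (SE 0.81, edgeR adjusted p = 0.00322), with a 95% interval from 1.81 to 5.24. As 8 of 8 mice at 28m and 1 of 7 at 6m were above the filter on low counts, this call supports no difference. Without 28m replicate 6 the log2fc was 2.56 and without 6m replicate 2 it was 4.46, and both passed (edgeR adjusted p = 0.00344 and 0.00225).

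Chrne, the adult epsilon subunit, had between 10.01 and 15.3 CPM at 6m (median 14.3) and between 15.98 and 27.9 at 28m (median 17.7). It was the one member in which all 8 mice at 28m lay above all 7 at 6m, which was the case for 6.21% of the genes tested. The log2fc was 0.50 (SE 0.13, edgeR adjusted p = 0.00796). With the trend of length and GC content removed it was 0.16 and did not pass (edgeR adjusted p = 0.394). Chrne and Chrnb1 were the members that lost the call in this way. Their annotated exons have a merged length of 1690 and 2531 bases, against 3288 to 4386 in the others. Length and GC content were removed together, so that the part of length alone was not tested. Chrna1 and Chrng kept log2fc values of 1.86 and 3.55 and their calls.

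**Figure D2:**
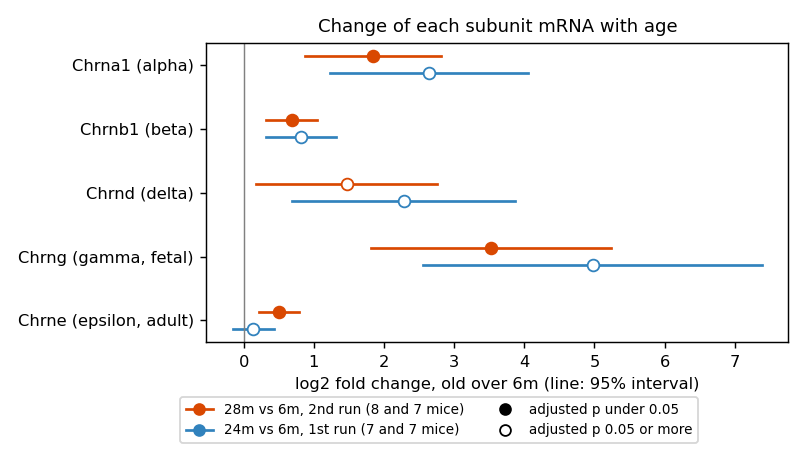
Log2fc of each subunit mRNA at 28m and at 24m against 6m of the same run on the horizontal axis, with lines for the 95% intervals from edgeR's test and filled circles for an adjusted p under 0.05. At 28m, 4 circles are filled, and at 24m none, although the log2fc of Chrna1, Chrnb1, Chrnd and Chrng is larger there.

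At 24m the levels of 4 subunits were higher in most mice, and none passed the adjusted test. The log2fc was 4.97 for Chrng (SE 1.13, edgeR adjusted p = 0.121), 2.64 for Chrna1 (0.66, adjusted p = 0.168), 2.28 for Chrnd (0.75, adjusted p = 0.294), 0.82 for Chrnb1 (0.23, adjusted p = 0.226) and 0.14 for Chrne (0.14, adjusted p = 0.662). Of all genes tested, 0.084% passed at this age, which is 11 genes, and 1546 had an unadjusted p under 0.05, as did 4 of the 5 members. The unadjusted p by edgeR's test was 0.000525 for Chrng and 0.00118 for Chrna1 at 24m, beside 0.000451 and 0.000885 at 28m. With DESeq2, 215 genes passed (1.4%), among them Chrna1 (log2fc 2.63, adjusted p = 0.00224) and Chrng (5.09, adjusted p = 0.00138). With a dispersion shared by all 29 libraries, 152 genes passed (1.13%), among them Chrna1 (edgeR adjusted p = 0.0231), Chrnb1 (0.0463) and Chrng (0.0129). Chrng had 6 of 7 mice at 24m and 1 of 7 at 6m above the filter on low counts. Its calls thus support no difference here either. The median log2fc was 2.28 over the 5 members, again the value of Chrnd, and 0.03 over all genes, and without replicates 4 and 5, left out after the values were seen, the median of the members was 0.50. No member had all 7 mice at 24m above all 7 at 6m, which held for 0.359% of the genes tested.

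Chrna1 had 14.9995 CPM in the lowest, 24.5 in the median and 332 in the highest mouse at 24m, and 11.1, 12.3 and 21.3 at 6m. Replicate 5 was highest with 26.9 times the 6m median, replicate 4 had 13.4 times and replicate 7 had 3.78 times, while the other 4 mice had between 1.22 and 1.99 times. Chrng had 2 to 1017 counts at 24m against 0 to 29 at 6m, with 32.1 CPM in replicate 5, 14.995 in replicate 4, 7.24 in replicate 7 and between 0.0769 and 1.80 in the others. Thus the same 3 mice were highest in the alpha and the gamma mRNA, and replicate 3, the lowest of its group in both, lay within the 6m range. Chrnb1 had 140 CPM in replicate 5 and 105 in replicate 4, against 41.8 to 68.6 in the other mice at 24m and 34.5 to 51.3 at 6m. In Chrnb1, 6 of the 7 mice exceeded the whole 6m range.

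Chrnd was highest in the same 3 mice but differed in the size of the rise. It had 69.1 CPM in replicate 5, the highest value of any library, 5.72 in replicate 7 and 4.16 in replicate 4, where Chrna1 had 165 CPM. At 6m its range was 1.16 to 3.52 CPM. Replicate 4 was also the library with the lowest scaling factor of all 29, 0.854, and with the lowest sum of endothelial markers, 141 CPM. In replicate 5 the muscle fibre markers and the Schwann cell and axon markers had their lowest sums of all libraries, 134184 and 42.0 CPM. The immune markers summed to 266 CPM in replicate 4, 180 in replicate 5 and 267 in replicate 7, to 438 in replicate 2, and to between 61.9 and 81.4 in replicates 1, 3 and 6, against 66.7 to 195 at 6m. The part of these values in the levels of the subunits was not tested. Chrne stayed between 11.9 and 21.7 CPM at 24m, against 11.1 to 16.1 at 6m, with replicate 5 highest and replicate 7 lowest. With replicates 4 and 5 left out, a choice made after the values were seen, the log2fc was 0.86 for Chrna1, 0.40 for Chrnb1, 0.50 for Chrnd, 3.09 for Chrng and 0.06 for Chrne, and none passed (edgeR adjusted p between 0.248 and 0.905).

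The balance between the fetal and the adult form was measured as the gamma share, Chrng divided by Chrng plus Chrne, both in reads per base of mRNA. It was 1.001% ± 1.26 (SD, n = 7) at 6m of the second run and 7.00% ± 6.67 (SD, n = 8) at 28m, a difference of 6.00 percentage points (p = 0.00513, exact two-sided permutation of the mice, 6435 assignments). The lowest mouse at 28m had 2.24%, the median was 4.86% and the highest, replicate 6, had 22.4%, and 5 of the 8 lay above every 6m mouse. Without replicate 6 the difference was 3.81 points (exact permutation p = 0.00350), and as a share of reads without regard to length it was 9.50 points (exact permutation p = 0.00404). At 24m the share was 17.6% ± 18.9 against 0.898% ± 1.24 at 6m (SD, n = 7 each), a difference of 16.7 points (p = 0.00758, exact two-sided permutation, 3432 assignments). Replicates 5, 4 and 7 had 45.8%, 38.8% and 25.8%, and the other 4 mice had 0.320% to 5.44%. The permutation p was above 0.05, at 0.0559 to 0.0594 (exact), in the fits without any one of the 6m replicates 1, 3, 4, 5, 6 and 7. Even in the highest mouse the epsilon mRNA was more abundant per base than the gamma mRNA. In plain reads, Chrng exceeded Chrne in 24m replicates 4 (429 against 388) and 5 (1017 against 688).

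**Figure D3:**
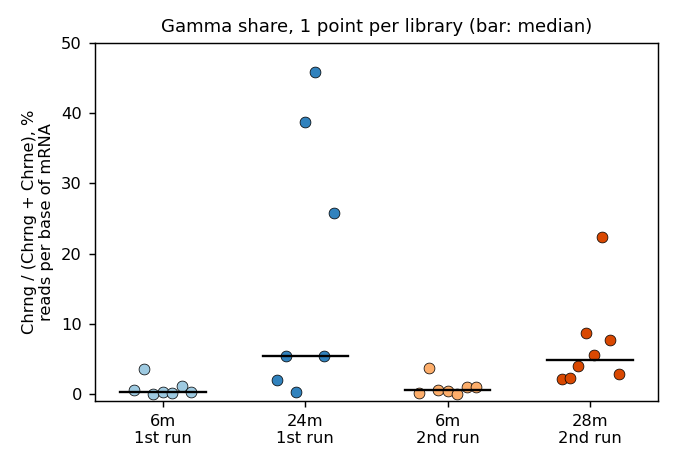
Gamma share, in percent of gamma plus epsilon mRNA per base, on the vertical axis for each library, by age group and run, with bars at the medians. The 6m libraries lie between 0 and 3.69%, and 3 mice at 24m and 1 at 28m lie above 20%.

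Of the reads per base on all 5 subunits, Chrnb1 took 60.0% ± 4.82 (SD, n = 7) at 6m of the second run and 55.7% ± 9.55 (n = 8) at 28m, and Chrne 27.0% ± 4.42 and 22.7% ± 5.67. Chrna1 took 9.85% ± 1.92 at 6m and 16.7% ± 7.81 at 28m. In proportion to Chrnb1, the level of Chrna1 per kilobase was between 0.116 and 0.218 at 6m and between 0.171 and 0.874 at 28m, and at 24m it reached 1.16. The median ratio of Chrnd to Chrnb1 was 0.0468 at 6m and 0.0515 at 28m. These shares were not tested.

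At 24m, 4 of 10 pairs of subunits varied together between mice by Pearson's r and 5 by rho, and none of these pairs held Chrne. Over the 7 mice at 24m, log2 CPM of Chrna1 and Chrnb1 had r = 0.989 (exact permutation p = 0.000397, adjusted p = 0.00794 over 20 pairs, rho = 0.964, exact p = 0.00278, adjusted 0.0185) and 0.918 without the 2 mice farthest from the median of Chrna1. Chrnb1 and Chrng had r = 0.939 (exact p = 0.00119, adjusted 0.00810, rho = 0.964, exact p = 0.00278, adjusted 0.0185), and 0.948 without 2 mice. For Chrna1 and Chrng it was 0.904 (exact p = 0.00218, adjusted 0.0109, rho = 0.893, exact p = 0.0123, adjusted 0.0492), and 0.857 without 2 mice. Thus the mice high in 1 of these subunits were high in the others at 24m. Chrnb1 and Chrnd also passed (r = 0.814, exact p = 0.0143, adjusted 0.0476, rho = 0.929, exact p = 0.00675, adjusted 0.0337, and r = 0.931 without 2 mice). Chrna1 and Chrnd passed by rho alone (rho = 0.964, exact p = 0.00278, adjusted 0.0185, r = 0.804, exact p = 0.0192, adjusted 0.0550, and r = 0.983 without replicates 4 and 5). Pairs with Chrne had r between 0.327 and 0.713 at 24m with rho between 0.0714 and 0.143, and none passed. Without 2 mice, r was negative for Chrne with Chrna1 (-0.38), Chrnb1 (-0.082) and Chrng (-0.55) and was 0.141 with Chrnd. The difference between these correlations was not tested.

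At 28m, over 8 mice, Chrna1 and Chrng had r = 0.934 (exact permutation p = 0.00283, adjusted 0.0113, rho = 0.786, exact p = 0.0279, adjusted 0.0698), and 0.991 without replicates 3 and 6. Chrna1 and Chrnd had r = 0.935 (exact p = 0.00122, adjusted 0.00810, rho = 0.833, exact p = 0.0154, adjusted 0.0513), and 0.645 without the same 2 mice. The other 8 pairs at 28m did not pass. Among them, Chrne had r = 0.795 with Chrna1, 0.741 with Chrng and 0.706 with Chrnd, with rho between 0.405 and 0.595. Their adjusted p-values for r by exact permutation lay between 0.0555 and 0.0840. Without 2 mice, r was 0.303, 0.0983 and 0.0957. Chrnb1 and Chrng went from r = 0.560 (exact p = 0.152, adjusted 0.191, rho = 0.214, exact p = 0.619, adjusted 0.884) to -0.875 without replicates 4 and 6, so that the sign of this pair rested on these mice. The sign also turned for Chrnb1 with Chrna1 (0.689 to -0.19) and with Chrne (0.310 to -0.48). All pairs share the libraries and their scaling.

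**Figure D4:**
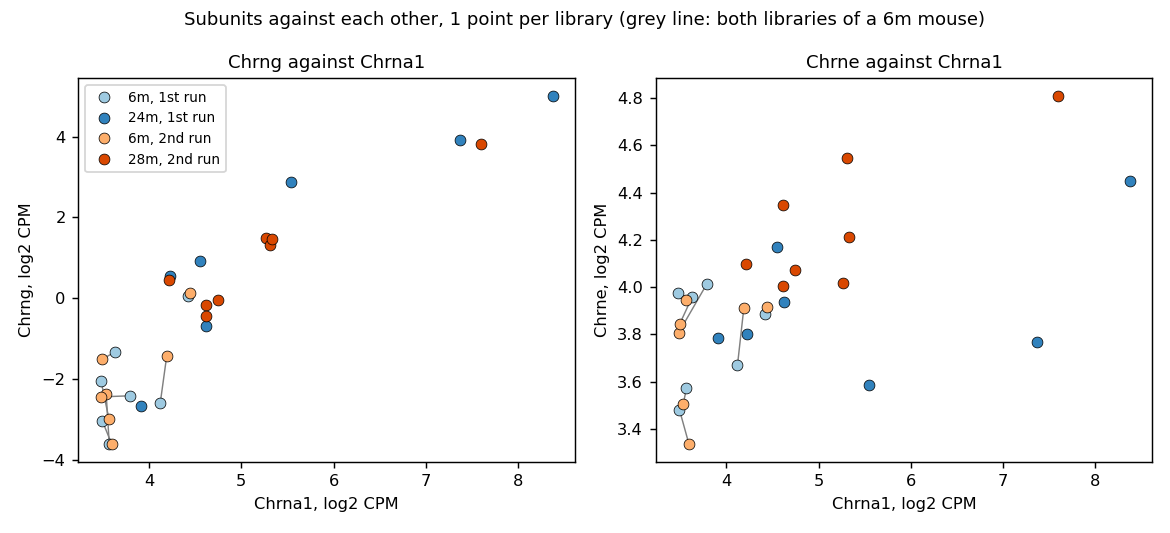
Log2 CPM of Chrng (left) and Chrne (right) on the vertical axes against Chrna1 on the horizontal axes, 1 point per library, with grey lines that join both libraries of a 6m mouse. Chrng follows Chrna1 within both old groups (r = 0.904 at 24m and 0.934 at 28m), and Chrne spreads over a narrower range at every level of Chrna1.

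No difference between the effects at 28m and at 24m was detected in a test over all 29 libraries, in which 0% of 13455 genes passed by edgeR, 0 by limma with the mouse as a block, and 1611 had an unadjusted p under 0.05 by edgeR. The 6m mice are the same in both runs, and by limma-voom 2865 genes had an unadjusted p under 0.05 with the mouse as a block and 1614 without it. The 28m effect minus the 24m effect was -0.79 for Chrna1 (95% interval -2.43 to 0.84), -0.13 for Chrnb1 (-0.73 to 0.47), -0.82 for Chrnd (-2.82 to 1.19) and -1.45 for Chrng (-4.49 to 1.59). By limma-voom these differences were -0.27, -0.06, -0.53 and -0.55 with the mouse as a block, and between -0.54 and -0.06 without it. The edgeR intervals leave room for sizeable differences in either direction. For Chrne it was 0.38 (-0.02 to 0.78, edgeR adjusted p = 0.433), so that its call at 28m and not at 24m does not show a difference between the ages.

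The repeated libraries of the 6m mice show how far preparation and sequencing moved these values. By edgeR no gene passed between the runs, with the mouse as a block or without it (0% of 12884 genes, 1052 at an unadjusted p under 0.05 with the block), and Chrna1, Chrnb1, Chrnd and Chrne had log2fc values between -0.03 and 0.03. Chrng was below the filter here. For Chrnb1 the SD of the difference between both libraries of a mouse was 0.04 on the log2 scale, against 0.20 and 0.22 between mice, and for Chrna1 it was 0.15 against 0.36 and 0.39. The differences among 6m mice in these subunits were thus larger than those between libraries of a mouse. Replicate 2 was highest in Chrna1, Chrnb1 and Chrng in both runs, with 29 and 24 counts of Chrng against at most 7 in every other 6m library. The same mouse had the highest sums at 6m of the fibroblast markers, 2744 and 2794 CPM against 1191 or less, and of the immune markers, 195 and 191 CPM against 143 or less, and their part in its subunit levels was not tested. For Chrnd the SD between libraries, 0.40, lay between those among mice in the runs, 0.51 and 0.26, and its lowest value was the first library of replicate 4, with 22 counts, where the second library had 41. That first library also differed most from its repeat over all genes, by an SD of 0.62 in log2 against 0.24 to 0.28 in the other mice.

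Genes of the same pathway were followed as lists. Of the genes that cluster and anchor the receptor, 0 of 19 tested rose at 28m and 7 fell, beside 24.3% and 22.9% of all genes tested. These were the agrin receptor Lrp4 (log2fc -0.61), the adaptor Crkl (-0.87), the membrane scaffold genes Utrn (-0.86), Sntb2 (-0.85) and Dag1 (-1.19), and the laminin genes Lamb2 (-0.46) and Lama5 (-0.69), with edgeR adjusted p-values between 0.000316 and 0.0232. With the trend of length and GC content removed, Crkl (-0.79), Utrn (-0.33), Sntb2 (-0.50) and Dag1 (-1.02) still passed, Lrp4 (-0.16), Lamb2 (-0.19) and Lama5 (-0.23) did not, and Dtna and Ric3 passed upward. Rapsn, which encodes rapsyn, had a log2fc of 0.15 (edgeR adjusted p = 0.263), and Musk, the kinase that starts clustering, had -0.62 (adjusted p = 0.222). The median log2fc of the list was -0.39, beside 0.01 over all genes, and it was -0.16 with the trend of length and GC content removed.

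Among the regulators that act through nerve activity, 2 of 16 tested rose at 28m and 4 fell, beside 24.3% and 22.9% of all genes tested, so that these counts do not set the list apart. With 1 mouse left out 3 fell in 12 of 15 fits and 5 in the other 3. The myogenic factors Myog, whose protein binds E-boxes, and Myf6 rose, with log2fc values of 2.09 (edgeR adjusted p = 0.00248) and 0.71 (adjusted p = 0.00140). The corepressor Dach2 (-0.80), the deacetylase Hdac7 (-0.61) and the transcription factors Mef2a (-1.12) and Mef2d (-0.92) fell, with edgeR adjusted p-values between 0.00139 and 0.0461. The highest of these was that of Mef2a, which passed in 3 of the 15 fits, while the other 5 genes passed in all. With the trend of length and GC content removed, 5 passed upward (Myog, Hdac5, Mef2c, Camk2b and Camk2d) and 2 downward (Dach2 and Mef2d). Myog passed under both, with 1.69 after the correction, and it had 10.6 ± 8.48 CPM at 28m (SD, n = 8) and 2.45 ± 1.496 at 6m (SD, n = 7). In the list for transcription under the nerve ending, 0 of 5 tested genes rose and 1, Gabpa of the N-box factor, fell by 0.26 on the log2 scale (edgeR adjusted p = 0.0237), and with the correction Gabpa did not pass and Gabpb1 passed upward. Without 28m replicate 6, Erbb3 also passed, downward.

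Of the other nicotinic subunits, 3 of 11 were tested. Chrna9 had 0.188 ± 0.123 CPM at 6m (SD, n = 7) and 0.681 ± 0.456 at 28m (SD, n = 8), with a log2fc of 1.84 (edgeR adjusted p = 0.00395). It entered the test mainly through the group in which it was high, with 6 of 8 mice at 28m and 1 of 7 at 6m above the filter on low counts, and in 6 of the 8 fits without 1 mouse of 28m it was not tested, so that its call supports no difference. The neuronal subunits Chrna3 and Chrna6 had 0 counts in every library at 28m and in every 6m library of the second run. In a single library, 0 counts allow an expected count of about 3 at most, and all these libraries together allow less. Of 8 genes known to respond to denervation, 4 rose and 0 fell at 28m, beside the same 24.3% and 22.9%. They included the cell cycle inhibitor Cdkn1a (log2fc 2.199), the stress gene Gadd45a (2.11) and the transcription factor Runx1 (1.60), with edgeR adjusted p-values between 0.000346 and 0.00426. These 3 also passed without replicate 6 and with the length correction, in which Ncam1 passed as well. At 24m, 0 genes of any of these lists passed by edgeR, as 0.084% of all genes did, and by DESeq2 2 of the activity list and 4 of the denervation list passed upward, beside 1.11% of the 15367 genes with an adjusted p. The median log2fc of the denervation list at 24m was 2.41, and 1.12 without replicates 4 and 5, left out after the values were seen.

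**Figure D5:**
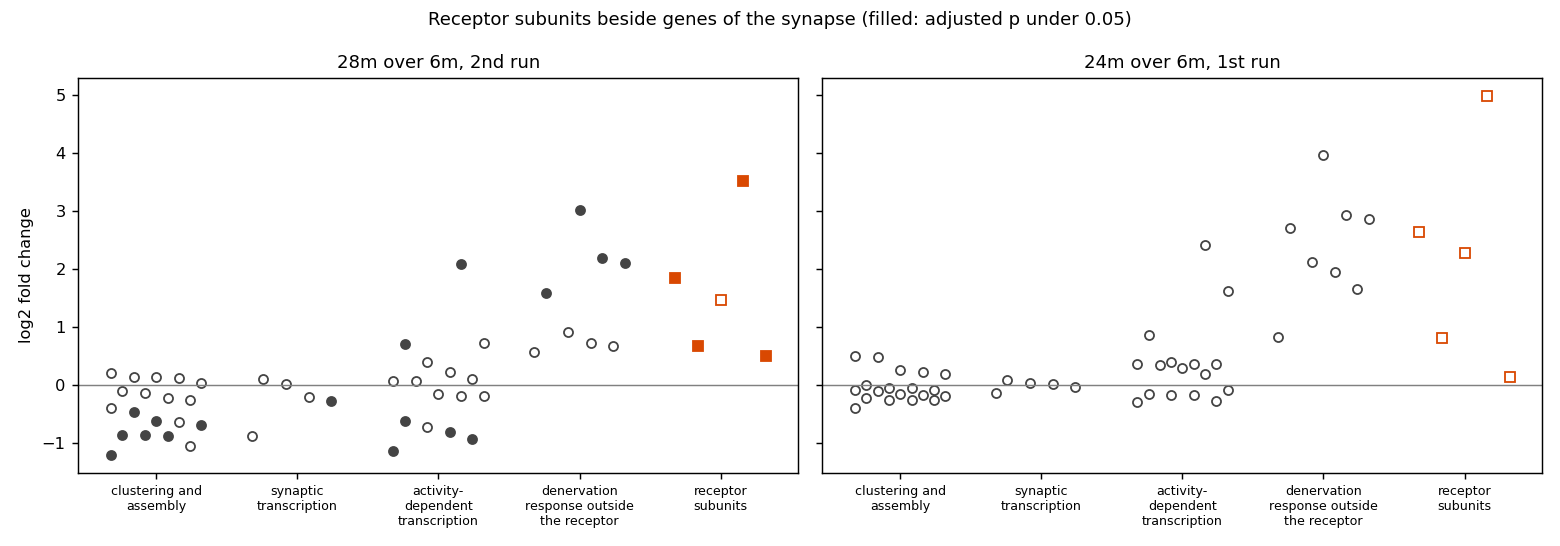
Log2fc of the genes of each list (grey circles) and of the 5 receptor subunits (orange squares) at 28m (left) and 24m (right), with filled symbols for an edgeR adjusted p under 0.05. The horizontal place within a list has no meaning except for the subunits, which stand in the order Chrna1, Chrnb1, Chrnd, Chrng and Chrne. The denervation genes and the subunits lie mostly above 0 at both ages, and filled symbols occur only at 28m.

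The genes whose log2 CPM was most like that of a member were listed over the libraries of both ages in a run, as a description, since a shared difference between ages raises each of these correlations. For Chrng in the second run (15 libraries) they were Cdkn1a (r = 0.958), Ankrd10 (0.951), Ttc9 (0.948), Bhlhb9 (0.939) and Tnnt2 (0.936). For Chrna1 they were Klhl5 (0.966), Aif1l (0.949), Cpne2 (0.949), Ttc9 (0.924) and Cdkn1a (0.923). Cdkn1a and Ttc9 stood in both lists. For Chrne they included Tsc22d4 (0.935), 2810029C07Rik (0.931), Hes6 (0.928) and Fxyd6 (0.924), none of which was in the lists of Chrna1 and Chrng. In the first run (14 libraries) the genes nearest Chrng were Iffo1 (0.946), Abhd15 (0.944), Runx1 (0.943), Tubb6 (0.936) and Tec (0.933), and those nearest Chrna1 were Rb1 (0.977), Atp13a3 (0.974), Hspb7 (0.973), Abhd15 (0.969) and Fam110a (0.967). Chrne had its nearest gene there in Kbtbd10 (0.853), followed by Prkaca (0.813), Ispd (0.813), Itgb6 (0.795) and Tlcd1 (0.782).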

How the data were processed

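The authors aligned 75-base single-end reads of poly-A RNA to mm10 with STAR 2.5.4b and deposited raw counts per gene symbol. The strand setting is not given in the sources used here. The labels give a smaller amount of RNA per library than the methods, and the design text of the series reverses the numbers of mice at 24m and 28m. The sample labels were used. All 22537 symbols were counted in all 29 libraries, with 0 columns left unmapped.

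Counts were tested in R 4.3.3 with edgeR 4.0.16 (filterByExpr, TMM, quasi-likelihood F test, Benjamini-Hochberg over all genes tested, call at an adjusted p under 0.05). A DEG also had an absolute log2fc of at least 1. CPM were scaled over all 29 libraries, and log2 CPM used a prior count of 2. Standard errors were derived from the F test. The mouse was the block in the comparison of the repeated 6m libraries and an alternative in the difference of age effects. The pairing comes from the sample titles, which mark the second library of a mouse as a repeat, and deviations of paired libraries correlated with r between 0.218 and 0.814. Levels per kilobase and the gamma share used the length of the GENCODE transcript paired with a RefSeq mRNA. The length and GC trend used the merged length of all annotated exons, matched by symbol for 20202 genes. Correlations used exact permutation over mice, two-sided, in scipy 1.17.1. Replicates of an age are separate mice. Figures used matplotlib 3.10.9. Named genes are the 5 members, the called genes of the clustering, transcription and nicotinic lists, up to 4 of the denervation list, and up to 5 genes most like Chrna1, Chrng and Chrne by Pearson correlation. A few of these genes are not reported here. Rapsn, Musk and the names of genes that passed under an alternative were added after their values were seen. Alternatives were DESeq2 1.42.0, limma-voom (limma 3.58.1), a robust prior, other scalings, no filter, a minimum of 10 counts, a shared dispersion, the other 6m libraries, thinned counts, removal of a length and GC trend, and leaving out each mouse. Scripts were tested on simulated data. The members and lists were chosen with earlier results of these data known.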

Additional observations from a re-analysis of the deposited data

Results flagged for a closer look

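Of 24 groups of values (5 members and the gamma share in 4 groups of libraries), 9 held a library that lay far from the rest by Dixon's criterion. Among independent, normally distributed groups, about 1 in 20 meet it by chance. Here the gamma share repeats Chrng, both 6m groups hold the same mice, and the CPM of the old mice are skewed. The count of 9 thus cannot be set against that rate. At 28m, replicate 6 had 194 CPM of Chrna1, with 40.2 in the next mouse, 36.4 CPM of Chrnd with 6.70 in the next, 14.1 CPM of Chrng with 2.71 in the next, and a gamma share of 22.4% with 8.79% in the next. At 24m, replicate 5 had 69.1 CPM of Chrnd, with 5.72 in the next mouse. At 6m, replicate 2 had 0.953 CPM of Chrng in the first run, with 0.316 in the next mouse, and 1.01 CPM in the second run, with 0.286 in the next. Its gamma share was 3.58% in the first run and 3.69% in the second. Both libraries of this 6m mouse are from 1 animal. The high 24m replicates 4 and 5 in Chrna1 and Chrng were not beyond the criterion, since they stood high together.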

How the results depend on the processing

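The log2fc of the members and the difference in gamma share kept their direction under every alternative run. Of the 20 correlations between members, 6 changed sign without 2 mice, 3 at each age, and 0 of these had passed. Of 51 list genes tested at each age, 12 at 28m and 17 at 24m changed sign under at least 1 alternative. None of these was called as reported, and Dtna (-0.13 to 0.36) and Hdac5 (-0.19 to 0.28) passed after the change, at 28m with the length and GC trend removed. At 28m, Chrna1 and Chrng passed under every alternative that could be fitted and in all 15 fits without 1 mouse, with log2fc ranges over the latter of 1.10 to 1.99 and 2.56 to 4.46. The calls of Chrng, at either age, support no difference, since it entered the tests mainly through the old mice. Chrnb1 (0.54 to 0.75) and Chrne (0.40 to 0.54) also passed in all 15, and with the length and GC trend removed they had 0.50 (edgeR adjusted p = 0.0526) and 0.16 (0.394), which left 2 members called. Chrnd ranged from 0.37 to 1.64 without 1 mouse and passed in 4 of 15 fits, and it passed by DESeq2 with 1.47 (adjusted p = 0.0460, and 0.0459 with outlying counts kept, an alternative added after seeing the data) and in thinned counts with 1.52. The members called numbered 4 to 5 and the genes called 5297 to 6688 without 1 mouse, and 2981 genes passed against the 6m libraries of the other run.

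At 24m, DESeq2 called Chrna1 (2.63) and Chrng (5.09), so 2 members, and 215 genes, or 220 with outlying counts kept. The shared dispersion called 3 members, Chrna1 (2.66), Chrnb1 (0.83) and Chrng (4.997), and 152 genes. The genes called numbered 4 with at least 10 counts in every library, 46 against the 6m libraries of the other run, 19 with the length and GC trend removed and 37 without replicates 4 and 5, which were chosen after seeing the data. Without 1 mouse they numbered 4 to 30, 30 without 24m replicate 4, 5 without 6m replicate 2 and 4 without 6m replicate 5 or 6, and 0 members passed in all 14 fits. Log2fc ranges there were 1.77 to 2.82 for Chrna1, 0.60 to 0.92 for Chrnb1, 0.53 to 2.46 for Chrnd, 4.05 to 6.07 for Chrng and 0.04 to 0.20 for Chrne. The difference in gamma share without 1 mouse was 3.81 to 6.68 points at 28m and 12.05 to 19.6 at 24m. By limma-voom with the mouse as a replicate block, the differences between the age effects were -0.27 for Chrna1, -0.06 for Chrnb1, -0.53 for Chrnd, -0.55 for Chrng and 0.38 for Chrne. Limma-voom without the block, added after seeing the data, gave -0.27, -0.06, -0.52, -0.54 and 0.38, close to the values with the block. With or without the block no call changed, in the repeated libraries too. Chrng was not tested under the minimum of 10 counts at either age, nor at 24m in thinned counts. Over the alternatives other than leaving out 1 mouse, genes called lower in the clustering list at 28m numbered 2 to 8 (7 as reported), genes called in the activity list 2 to 5 higher (2) and 2 to 5 lower (4), and in the denervation list 3 to 5 higher (4), and at 24m 0 to 2 genes of the activity list and 0 to 5 of the denervation list were called higher (0 as reported). Without 1 mouse, 7 to 9 genes of the clustering list were called lower at 28m, 3 to 5 of the activity list lower and 2 to 3 higher, and 4 to 6 of the denervation list higher. The causes of these changes were not tested.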
